A study of Mus musculus with 6 samples.

Results

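The proteasome and immunoproteasome genes were examined in Tomato+ cells sorted from mouse knee cartilage. The members were all genes whose symbol starts with Psm, a letter from a to g and a number, and 51 of the 17854 genes in the table met this rule. Of these, 48 encode subunits, activators, an inhibitor or assembly chaperones of the proteasome. Psme2b is a near-identical copy of Psme2, Psmc3ip encodes a protein that binds a subunit, and Psme3ip1 encodes a protein that binds an activator. The table was bulk RNA-seq of 3 libraries of MSC-derived cells and 3 libraries of endogenous cells, all from male C57BL/6 mice. MSC-derived cells were Tomato+ cells recovered from the joints of mice with knee osteoarthritis, which had been induced by cutting the anterior cruciate ligament and had been treated by injection of MSCs (mesenchymal stromal cells) from inguinal white adipose tissue of Prrx1-Cre; R26 tdTomato donors. Endogenous cells were Tomato+ articular cells of age-matched Prrx1-Cre; R26 tdTomato mice that carried the label in their own tissue. In both groups the red label came from Cre under the control of Prrx1, a gene of limb mesenchyme, and it stays on in all descendants of a cell in which Cre was active. Injection, osteoarthritis and the adipose origin of the cells all differed between the groups and cannot be told apart.

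The proteasome is the main protease for ubiquitin-tagged proteins. Its barrel, the 20S core, has outer rings of alpha subunits and inner rings of beta subunits, of which Psmb5, Psmb6 and Psmb7 encode the catalytic ones. The 19S particle caps the barrel, recognises ubiquitin, and unfolds the substrate with a ring of ATPases. In immune cells, and in other cells after interferon gamma, Psmb8, Psmb9 and Psmb10 encode alternative catalytic subunits that take the places of those from Psmb5, Psmb6 and Psmb7, and the barrel is then called the immunoproteasome. Psme1 and Psme2 encode the activator PA28 alpha beta, which is induced with it, and the peptides made by these particles supply MHC class I molecules.

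Depth was similar in all libraries, at 22060628 to 24881796 expected counts, and a floor of 3 counts corresponded to 0.121 to 0.136 CPM (counts scaled to a library of fixed size), for counting error only. The spread between libraries was wider among the endogenous cells (biological coefficient of variation 35.3%) than among the MSC-derived cells (6.77%), and endogenous replicate 1 stood apart, with 3459 genes at 0 against 1338 and 1395 in the other endogenous libraries. The labels call the cells chondrocytes. All 15 chondrocyte markers tested were lower in the MSC-derived cells, where they summed to 496 to 511 TPM (a level per transcript length, scaled to the same sum in every library) against 30154 to 30500 TPM in the endogenous cells, while all 16 leukocyte markers were higher, at 15949 to 16473 TPM against 780 to 967 TPM. None of the markers of either list was at 0 in all libraries of a group. In bulk samples, fewer cells of a type and less RNA per cell cannot be told apart.

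The members as a group lay higher in the MSC-derived cells. Of the 50 members that passed the filter on low counts, 33 rose and 0 fell by edgeR's quasi-likelihood test with Benjamini-Hochberg adjustment (threshold 0.05), and no member was lower at an unadjusted p under 0.05 either. DESeq2 also called 33 higher and 0 lower. Over all 14289 genes tested, 31.3% were called higher and 30.3% lower, so that the share of members called higher, 66.0%, was larger than the share of all genes. The median log2 fold change was 0.54 over the members and 0.05 over all genes. The groups did not overlap in CPM for 40 of the 50 members (80.0%), against 72.4% of all genes (38.2% with the MSC-derived libraries higher), and 46 of the 50 had a positive log2 fold change.

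The count of rises depended on the scale, and other scales gave both larger and smaller counts. The above values use counts scaled by edgeR's TMM factors. With limma on log2(TPM + 1), where the median of all genes moved to -0.28, 17 members were higher and 8 were lower, against 21.9% and 41.7% of all genes. The 16 members that lost their call there were Psma1, Psma3, Psma4, Psmb1, Psmb3, Psmb5, Psmb7, Psmc3, Psmc4, Psmd6, Psmd8, Psmd12, Psmd13, Psmd14, Psme3 and Psmf1. Relative to the median of all genes, the median of the members was higher by 0.50 on the TMM scale and by 0.41 on the TPM scale (log2). Of the 33 members called higher, 17 were called higher in all 18 fits at this threshold, and the 5 immunoproteasome genes were among them.

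**Figure D1:**
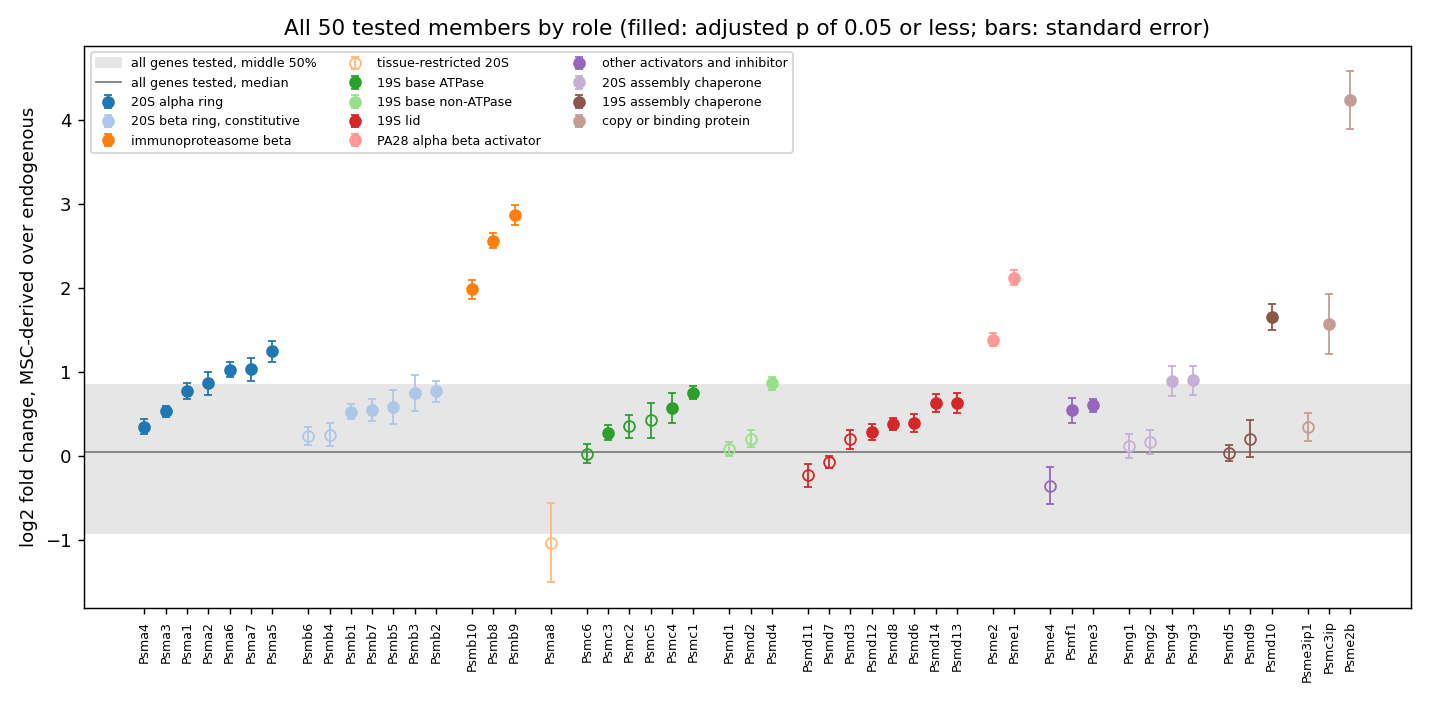
log2 fold change of MSC-derived over endogenous cells, with its standard error, on the TMM scale, for each of the 50 tested members, ordered by role (filled points: adjusted p of 0.05 or less, edgeR). The grey band holds the middle 50% of all genes tested and the grey line is their median, 0.05. The 3 immunoproteasome beta genes and Psme1 lie near or above 2, most alpha ring genes between 0.5 and 1.3, and the 19S genes between -0.23 and 0.86.

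The 3 catalytic subunits of the immunoproteasome rose the most among the genes of the core. Psmb8, whose product (LMP7) replaces that of Psmb5, was at 169.5, 161 and 160.0 CPM in MSC-derived replicates 1, 2 and 3 and at 25.9, 26.8 and 30.3 CPM in the endogenous replicates. Psmb9, whose product (LMP2) replaces that of Psmb6, was at 79.2, 76.8 and 82.7 CPM against 9.47, 11.8 and 11.3 CPM. Psmb10, whose product (MECL-1) replaces that of Psmb7, was at 73.1, 66.3 and 67.3 CPM against 16.0, 19.1 and 17.03 CPM. In all of these genes, every MSC-derived library lay far above every endogenous library, and the libraries of a group lay close together. The log2 fold changes were 2.57 ± 0.09 (SE, adjusted p = 4.41e-07) for Psmb8, 2.87 ± 0.12 (adjusted p = 8.15e-07) for Psmb9 and 1.99 ± 0.11 (adjusted p = 3.70e-06) for Psmb10 in edgeR's test. These are 5.92-fold, 7.31-fold and 3.96-fold differences.

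The PA28 alpha beta activator rose with them. Psme1, which encodes the alpha subunit, was at 116, 124 and 126 CPM in the MSC-derived libraries and at 29.1, 28.9 and 26.1 CPM in the endogenous libraries, a log2 fold change of 2.12 ± 0.09 (adjusted p = 8.63e-07). Psme2, which encodes the beta subunit, was at 144, 139.6 and 139 CPM against 57.0, 51.8 and 53.6 CPM, a log2 fold change of 1.38 ± 0.08 (adjusted p = 3.67e-06). Although the products of these genes assemble into the same ring, the fold of Psme1 was 4.35 and that of Psme2 was 2.61, and the difference between them was not tested. All 5 immunoproteasome genes were called higher under every fit, with each library left out in turn included, and the smallest log2 fold change under any of them was 0.95, for Psme2 with limma on log2(TPM + 1).

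Psme2b, the copy of Psme2, was at 12.4, 11.3 and 13.3 CPM in the MSC-derived cells and at 0.617, 0.398 and 0.921 CPM in the endogenous cells. It had the largest log2 fold change of the members (4.24 ± 0.34, adjusted p = 2.59e-05), but reads of the copy and of Psme2 may have been divided between them by the estimate, so both values are uncertain. Psme2b took 7.49% to 8.70% of the counts of the pair in the MSC-derived libraries and 0.788% to 1.68% in the endogenous libraries.

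**Figure D2:**
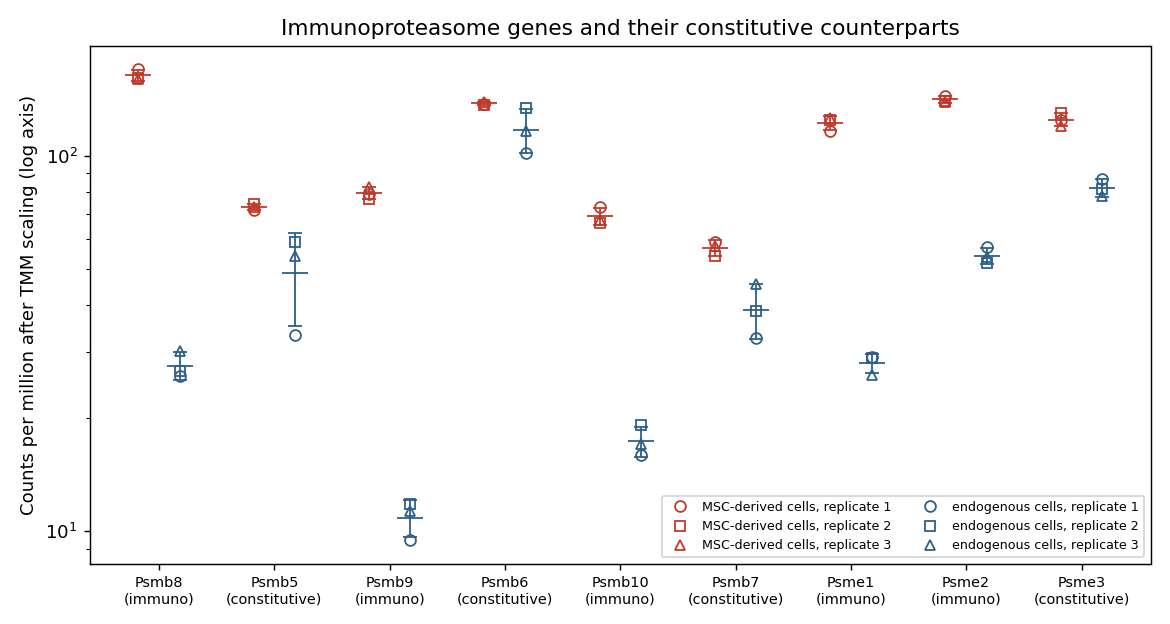
CPM after TMM scaling, on a log axis, of the 5 immunoproteasome genes and of Psmb5, Psmb6, Psmb7 and Psme3, with 1 point per library and the mean ± SD of the 3 libraries of each group (red: MSC-derived, blue: endogenous). The groups are separated widely for Psmb8, Psmb9, Psmb10, Psme1 and Psme2, and come close for Psmb6, at 137 to 139 CPM against 102 to 134 CPM.

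The constitutive catalytic subunits differed less. Psmb5, the chymotrypsin-like subunit, was at 71.5, 74.5 and 72.8 CPM in the MSC-derived libraries and at 33.2, 58.8 and 54.2 CPM in the endogenous libraries (log2 fold change 0.58 ± 0.20, adjusted p = 0.0374). Psmb7, the trypsin-like subunit, was at 59.1, 53.9 and 57.6 CPM against 32.7, 38.6 and 45.6 CPM (log2 fold change 0.55 ± 0.13, adjusted p = 0.00937). Psmb6, the caspase-like subunit, was at 137, 137 and 139 CPM against 102, 134 and 116 CPM, and its log2 fold change of 0.23 ± 0.11 did not pass the test (adjusted p = 0.0970). The groups did not overlap for any of these genes, as for 72.4% of all genes, but the lowest endogenous value in each was replicate 1. The call for Psmb5 was lost in 4 of the 6 fits that left out a library, with adjusted p up to 0.0991 without MSC-derived replicate 2, while without endogenous replicate 1 its log2 fold change was 0.31 (adjusted p = 0.000255). On the log2(TPM + 1) scale Psmb5, Psmb6 and Psmb7 gave 0.19, -0.20 and 0.11, with no call.

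The alternative subunits compete for the same places in the barrel. The share of each immunoproteasome gene in the transcripts of its pair was therefore computed within each library from TPM. This share does not depend on scaling between libraries. It is a share of transcripts in a bulk sample and not of subunits in the barrel. The part of the mix of cells in it was not tested. Psmb8 made up 61.0%, 58.9% and 59.2% of the sum of Psmb8 and Psmb5 in the MSC-derived cells, against 34.1%, 23.1% and 26.9% in the endogenous cells. Psmb9 made up 43.1%, 42.2% and 43.9% of its sum with Psmb6, against 10.7%, 10.4% and 11.3%. Psmb10 made up 46.2%, 45.8% and 44.8% of its sum with Psmb7, against 25.1%, 25.5% and 20.5%. The shares were thus higher in each MSC-derived library than in any endogenous library. In TPM, Psmb8 was the only one of the 3 that exceeded its constitutive counterpart in the MSC-derived cells. In CPM, which is not scaled by length, Psmb10 also did so there, at 73.1, 66.3 and 67.3 against 59.1, 53.9 and 57.6 for Psmb7. The mean differences were 31.6, 32.3 and 21.9 percentage points, and the ratio of the pair differed by 3.84-fold for Psmb8, 6.27-fold for Psmb9 and 2.71-fold for Psmb10.

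The same share was computed for Psme1 and Psme3, which encode activators of the PA28 family. They were compared as members of 1 family and not as subunits that replace one another. Psme3, which encodes the nuclear activator PA28 gamma, was at 124, 129.8 and 120.0 CPM in the MSC-derived libraries and at 86.8, 81.7 and 77.8 CPM in the endogenous libraries (log2 fold change 0.60, adjusted p = 0.000398). With limma on log2(TPM + 1) its value was 0.16, with no call (adjusted p = 0.218). Psme1 made up 74.7%, 75.04% and 76.7% of the sum of Psme1 and Psme3 in TPM, against 51.2%, 52.7% and 51.4%, a difference of 23.7 percentage points. For each of the 4 pairs the two-sided exact permutation test of 3 against 3 libraries gave p = 0.1 (adjusted over the 4 pairs, 0.1), which is the smallest p this design allows and does not reach 0.05.

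**Figure D3:**
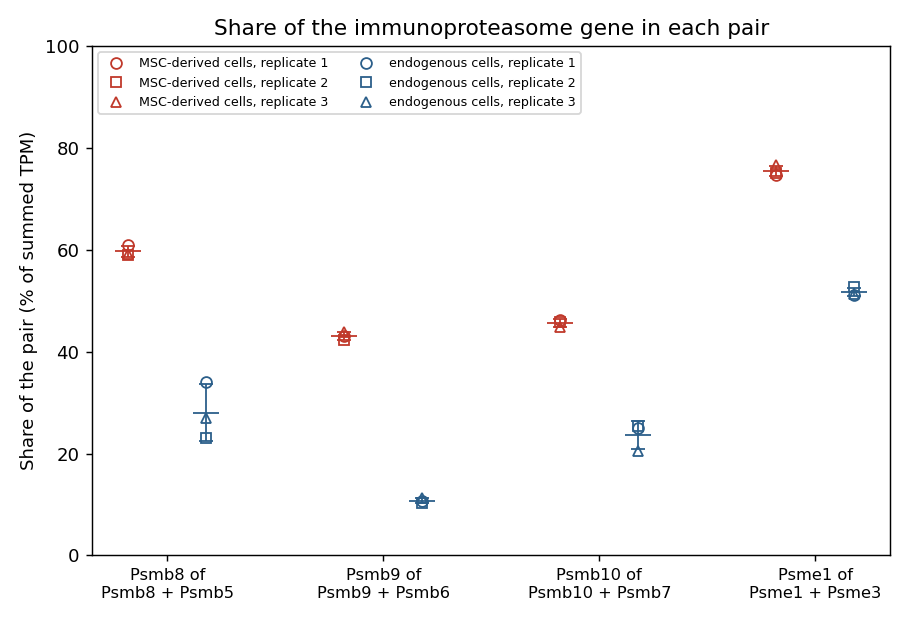
Share of the immunoproteasome gene in the summed TPM of each pair, in percent, with 1 point per library and the mean ± SD of the 3 libraries of each group (red: MSC-derived, blue: endogenous). The groups do not overlap in any of the 4 pairs, and the share of Psmb8 is 58.9% to 61.0% in the MSC-derived libraries and 23.1% to 34.1% in the endogenous ones.

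To show the sequence around the starts of these genes, the region from 250 bases before to 30 bases after the start was taken from RefSeq on GRCm38.p6 for 43 of the 51 members. It was searched on both strands for GAAA-NN-GAAA, the interferon-stimulated response element read by IRF factors, for TTCNNNGAA, the gamma-activated site, and for TGACNNNGC, the core of the element bound by NRF1 (Nfe2l1) and NRF2 (Nfe2l2). These letters do not overlap with one another in the windows shown. The windows of 3 genes that rose strongly, and of the counterparts of Psmb8 and Psmb9, are given 5′ to 3′ on the strand of the gene, with the matches in capitals. They lie at chr17:34197945-34198224 (plus strand) for Psmb8, chr17:34187301-34187580 (minus strand) for Psmb9, chr14:55578244-55578523 (plus strand) for Psme1, chr14:54617966-54618245 (minus strand) for Psmb5 and chr11:70525107-70525386 (plus strand) for Psmb6.
Psmb8: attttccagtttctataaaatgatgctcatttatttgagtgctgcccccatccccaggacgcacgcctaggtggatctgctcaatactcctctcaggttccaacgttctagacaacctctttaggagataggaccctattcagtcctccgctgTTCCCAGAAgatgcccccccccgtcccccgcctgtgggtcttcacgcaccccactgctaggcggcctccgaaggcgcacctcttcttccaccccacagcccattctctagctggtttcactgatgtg
Psmb9: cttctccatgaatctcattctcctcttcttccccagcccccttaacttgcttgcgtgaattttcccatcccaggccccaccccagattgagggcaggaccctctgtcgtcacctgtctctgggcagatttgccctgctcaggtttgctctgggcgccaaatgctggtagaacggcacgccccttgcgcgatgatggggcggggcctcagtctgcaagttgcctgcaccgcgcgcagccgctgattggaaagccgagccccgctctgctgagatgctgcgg
Psme1: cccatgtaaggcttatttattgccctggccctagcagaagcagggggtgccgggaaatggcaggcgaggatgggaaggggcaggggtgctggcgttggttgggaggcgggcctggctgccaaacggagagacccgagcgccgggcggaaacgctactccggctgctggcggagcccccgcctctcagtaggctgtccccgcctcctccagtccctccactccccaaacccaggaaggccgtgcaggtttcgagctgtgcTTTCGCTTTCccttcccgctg
Psmb5: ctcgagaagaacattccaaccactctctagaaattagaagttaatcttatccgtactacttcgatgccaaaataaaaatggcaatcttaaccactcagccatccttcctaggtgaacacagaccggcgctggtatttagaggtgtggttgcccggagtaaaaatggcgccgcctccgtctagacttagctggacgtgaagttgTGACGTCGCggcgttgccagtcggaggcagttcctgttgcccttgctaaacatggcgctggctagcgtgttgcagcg
Psmb6: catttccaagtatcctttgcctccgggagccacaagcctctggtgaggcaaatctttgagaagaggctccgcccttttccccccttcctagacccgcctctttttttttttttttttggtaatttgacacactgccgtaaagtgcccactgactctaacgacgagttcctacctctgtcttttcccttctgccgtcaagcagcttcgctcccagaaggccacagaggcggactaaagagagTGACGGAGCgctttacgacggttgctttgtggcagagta

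The window of Psmb8 held 1 TTCNNNGAA match, that of Psme1 held 1 GAAA-NN-GAAA match on the reverse strand just after the start, and those of Psmb5 and Psmb6 each held 1 TGACNNNGC match just before it. No match was found in the window of Psmb9. Over all 32851 windows, 3.28% held GAAA-NN-GAAA, 7.83% held TTCNNNGAA and 11.5% held TGACNNNGC. The 43 members had 47 windows. Of these windows, 5 held the first motif (Psmb3, Psmd4, Psmd9, Psme1 and Psmg4) and 3 held the second (Psmb8, Psmd2 and Psmg1). The third was in 6 (Psmb5, Psmb6, Psmc6, Psmd12, Psmd9 and Psme4). The difference from the shares over all windows was not tested. Psmb7, Psmb10 and Psme2 were in none of these lists, and no window of theirs is shown. A match is a description of letters and not evidence of binding.

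Among the constitutive subunits, 12 of 14 core genes and 9 of 17 cap genes were called higher. All 7 genes of the alpha ring (Psma1 to Psma7) were called higher, with log2 fold changes of 0.35 to 1.24 and a median of 0.86, although Psma4 turned to -0.08, with no call, on the log2(TPM + 1) scale. In the constitutive beta ring 5 of 7 genes were called higher (Psmb1, Psmb2, Psmb3, Psmb5 and Psmb7), with a median of 0.55, and Psmb4 and Psmb6 did not pass the test. The 17 genes of the 19S particle had 9 calls and a median of 0.35. The 14 core genes had a median of 0.67, and on the log2(TPM + 1) scale the medians of core and cap were 0.26 and -0.07. The difference between core and cap was not tested. Over the 31 genes of core and cap together 21 were called higher (67.7%, against 31.3% of all genes), 0 were lower and the median was 0.52, where the 5 immunoproteasome genes had a median of 2.12.

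In the alpha ring, which gates entry into the barrel, Psma5 had the largest log2 fold change. Psma5 was at 224, 219.8 and 219.8 CPM in the MSC-derived libraries and at 75.5, 101 and 103 CPM in the endogenous libraries (log2 fold change 1.24 ± 0.13, adjusted p = 9.03e-05). Psma7 was at 211, 204 and 202 CPM against 78.3, 112 and 112 CPM (1.03 ± 0.14, adjusted p = 0.000505). Psma6 was at 137, 136 and 137 CPM against 61.1, 70.7 and 69.1 CPM (1.03 ± 0.08, adjusted p = 2.73e-05). The MSC-derived libraries were nearly equal in these genes, and the lowest value in each came from endogenous replicate 1. Psma4 had the smallest change of the ring (0.35, adjusted p = 0.0103), and its call was lost in 2 of the 6 fits that left out a library.

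In the ring of 6 ATPases, Psmc1 (0.75), Psmc3 (0.27) and Psmc4 (0.57, all log2 fold changes) were called higher. Psmc5 was at 91.2, 92.3 and 88.9 CPM in the MSC-derived cells and at 44.9, 76.5 and 82.0 CPM in the endogenous cells, and did not pass the test (0.42 ± 0.21, adjusted p = 0.119). Psmc2 was at 86.4, 86.9 and 84.8 CPM against 81.8, 55.7 and 65.1 CPM (0.35 ± 0.14, adjusted p = 0.0630). Psmc6 was at 63.6, 64.3 and 62.9 CPM against 68.0, 53.5 and 65.8 CPM (0.03 ± 0.11, adjusted p = 0.846). The groups overlapped only for Psmc6 among the 6 ATPase genes, so that 83.3% of them did not overlap, against 72.4% of all genes. Endogenous replicate 1 was the lowest of the 6 libraries for Psmc5 but the highest of the endogenous ones for Psmc2.

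Of the other genes of the 19S base, Psmd4, which encodes a ubiquitin receptor, was called higher with a log2 fold change of 0.86 (adjusted p = 5.53e-05), whereas the large scaffold genes Psmd1 (0.08, adjusted p = 0.461) and Psmd2 (0.20, adjusted p = 0.111) did not pass the test. In the lid 5 of 8 genes (62.5%, against 31.3% of all genes) were called higher: Psmd13 (0.63), Psmd14 (0.63), Psmd6 (0.40), Psmd8 (0.38) and Psmd12 (0.28). Psmd14 encodes the enzyme that removes ubiquitin chains from the substrate, and it was at 67.2, 75.2 and 72.0 CPM against 41.6, 46.0 and 50.6 CPM. The lid genes Psmd3 (0.19, adjusted p = 0.171), Psmd7 (-0.08, adjusted p = 0.381) and Psmd11 (-0.23, adjusted p = 0.164) were not called. Psmd11 was at 117, 115 and 118 CPM in the MSC-derived libraries and at 168, 121 and 123 CPM in the endogenous libraries, so that every endogenous library was above every MSC-derived one.

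**Figure D4:**
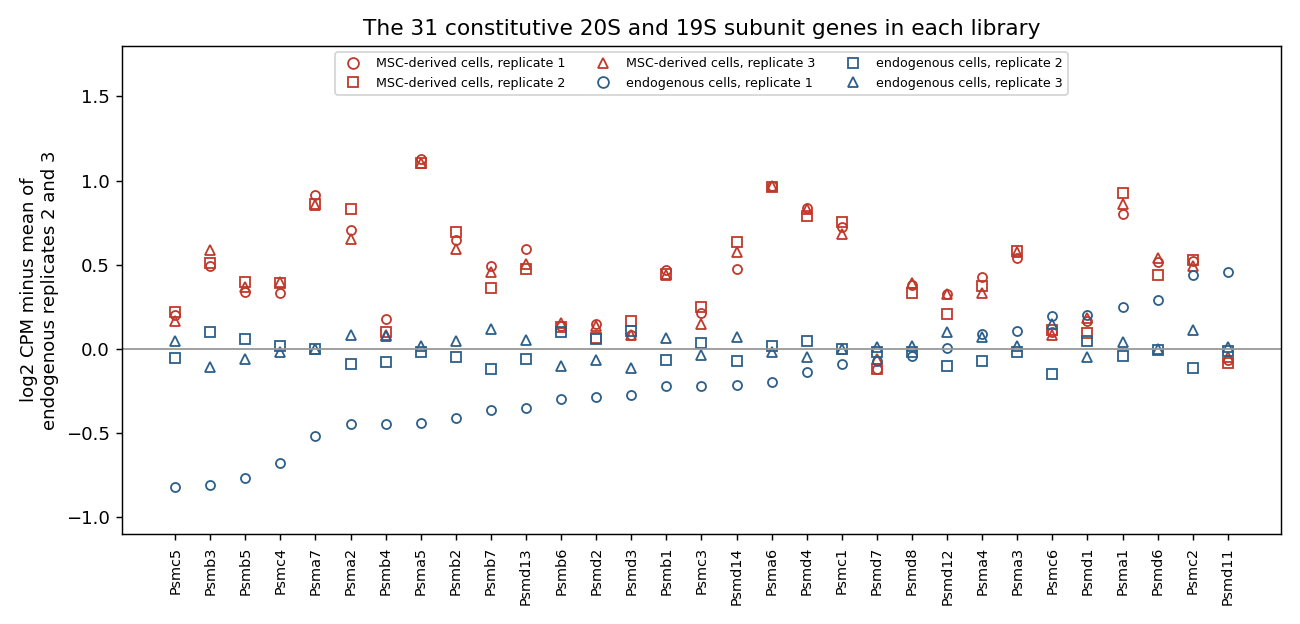
log2 CPM of the 31 constitutive core and cap genes in each library, minus the mean of endogenous replicates 2 and 3 (red: MSC-derived, blue: endogenous; the marker shape gives the replicate), ordered by the value of endogenous replicate 1. Endogenous replicate 1 runs from -0.82 for Psmc5 to 0.46 for Psmd11, while the MSC-derived libraries lie close to each other in every gene.

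Endogenous replicate 1, the library with 3459 genes at 0, also stood apart in these genes. Its difference from the mean of endogenous replicates 2 and 3 had an SD of 0.345 over the 31 constitutive genes (log2 CPM), against an SD of 0.134 for the difference of replicates 2 and 3 from each other, and over the 5 immunoproteasome genes the SDs were 0.173 and 0.144. The same SDs were not computed over all genes, so this spread is not shown to be particular to the proteasome genes. Without endogenous replicate 1, 36 members were called higher and 3 lower, where 37.8% and 38.6% of all genes were called. Psmc2 (0.46), Psmc5 (0.14) and Psme3ip1 (0.44) were then called higher, and Psma8 (-1.30), Psmd7 (-0.15) and Psmd11 (-0.12) were called lower. The median of the constitutive genes was 0.38 without that library. Of the 33 members called higher with all libraries, 24 were called higher in each of the 6 fits that left out a library; Psma4, Psmb3, Psmb5, Psmb7, Psmc3, Psmc4, Psmd6, Psmd12 and Psmf1 were not.

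On the per-length scale, the 14 core genes had sums of 3148, 3158 and 3078 TPM in MSC-derived replicates 1, 2 and 3, against 2376, 2639 and 2682 TPM in the endogenous replicates. The 17 cap genes summed to 1506, 1492 and 1484 TPM against 1679, 1529 and 1569 TPM. The core was thus higher and the cap lower in each MSC-derived library than in any endogenous library on this scale. The 3 immunoproteasome beta genes summed to 456, 430.4 and 438 TPM against 102, 102 and 104 TPM. Of the 31 constitutive genes, 7 were called higher and 6 lower with limma on log2(TPM + 1), where the 6 lower genes were Psmc6, Psmd1, Psmd2, Psmd3, Psmd7 and Psmd11, all of the cap. The cap genes Psmc3, Psmd6, Psmd8 and Psmd12, called higher on the TMM scale, had values of -0.16 to -0.04 there, with no call.

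The levels of the core genes, whose products are used in equal number in the barrel, were not equal. Among the 14 constitutive core genes in MSC-derived replicate 1, the lowest was Psma4 at 95.6 TPM and the highest was Psmb3 at 369 TPM, and the coefficient of variation was 39.3%. It was 33.1% to 40.4% in the endogenous libraries, where Psmb7 or Psma4 was lowest and Psma3 or Psmb3 highest.

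Among the other activators, Psme4, which encodes PA200, was at 22.9, 23.4 and 21.7 CPM in the MSC-derived libraries and at 39.2, 22.1 and 25.7 CPM in the endogenous libraries, and did not pass the test (log2 fold change -0.36 ± 0.22, adjusted p = 0.190). It was called lower without endogenous replicate 2 (-0.54, adjusted p = 0.0466). Psmf1, which encodes the inhibitor PI31, was called higher (0.54, adjusted p = 0.0153), but not with limma on log2(TPM + 1) (0.10, adjusted p = 0.469).

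Assembly chaperones were mixed. Psmd10 (gankyrin), a chaperone of the 19S base, was at 29.6, 28.9 and 28.2 CPM in the MSC-derived libraries and at 7.71, 10.3 and 9.46 CPM in the endogenous libraries, and had the largest log2 fold change outside the immunoproteasome among proteasome genes (1.65 ± 0.15, adjusted p = 5.29e-05). The other base chaperones, Psmd5 (0.03, adjusted p = 0.785) and Psmd9 (0.20, adjusted p = 0.457), were not called. Of the chaperones of the core, Psmg3 was at 13.8, 14.9 and 14.9 CPM against 8.19, 8.45 and 6.70 CPM (0.90 ± 0.17, adjusted p = 0.00266), and Psmg4 was also called higher (0.89). Their partners Psmg1 (0.12, adjusted p = 0.510) and Psmg2 (0.16, adjusted p = 0.349) were not. The calls thus fell to Psmg3 and Psmg4, which act together as a dimer, and not to the dimer of Psmg1 and Psmg2, a difference that was not tested.

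The tissue-restricted core genes were low. Psma8, an alpha subunit of the testis, was at 0.899, 1.27 and 2.14 CPM in the MSC-derived libraries and at 2.07, 3.40 and 3.39 CPM in the endogenous libraries, with groups that overlapped (log2 fold change -1.04 ± 0.47, adjusted p = 0.0927). Psmb11, the beta subunit of the thymic cortex, had expected counts of 0, 0 and 4.07 in the MSC-derived libraries and 1.75, 5 and 0 in the endogenous libraries, and was the only member below the filter. For Psmb11 no difference could be shown at this depth. Of the binding proteins, Psmc3ip, which acts in recombination, was at 4.61, 6.11 and 5.29 CPM against 1.41, 1.46 and 2.51 CPM (1.57 ± 0.36, adjusted p = 0.00670), and Psme3ip1, which binds PA28 gamma, was not called with all libraries (0.34, adjusted p = 0.119).

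Partners of the proteasome outside the naming rule were taken from a list of 13 symbols, some of them older names, of which 10 were in the table. Of these 6 were higher and 1 was lower, and 5 and 2 with limma on log2(TPM + 1). Sem1, a small subunit of the lid, was among those called higher (0.83), and Adrm1, a ubiquitin receptor of the 19S base, was not called (0.09, adjusted p = 0.585). Pomp, which matures the core and is needed for immunoproteasome assembly, was at 186, 187 and 201 CPM in the MSC-derived libraries and at 50.3, 68.9 and 72.6 CPM in the endogenous libraries (log2 fold change 1.58, adjusted p = 4.70e-05). Zfand5, an activator of the proteasome, was at 209, 219 and 209 CPM against 381, 294 and 327 CPM (-0.66, adjusted p = 0.000952). The counts of this list and of those below stand beside 31.3% of all genes higher and 30.3% lower. With limma on log2(TPM + 1) the shares of all genes were 21.9% higher and 41.7% lower. Of 11 genes for ubiquitin supply and shuttles 3 were higher and 2 lower, but 0 were higher and 6 lower with limma on log2(TPM + 1). The largest fall was that of Ubqln2 (-0.53), a shuttle to the proteasome.

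Of 5 genes that control proteasome transcription, 2 were higher and 1 was lower on the TMM scale, whereas 0 were higher and 3 lower (Nfe2l1, Ddi2 and Vcp) with limma on log2(TPM + 1). Nfe2l1, which encodes NRF1, the factor that raises proteasome genes when the proteasome is impaired, was at 84.5, 86.4 and 91.2 CPM in the MSC-derived libraries and at 159, 164 and 159 CPM in the endogenous libraries, and fell by 0.88 on the log2 scale (adjusted p = 2.57e-05). Ngly1, the glycanase that processes NRF1, rose by 0.60 (adjusted p = 0.00912) but gave 0.14 with no call on the log2(TPM + 1) scale. Nfe2l2, which encodes NRF2, rose by 0.35 (adjusted p = 0.00796) but gave -0.09 on the log2(TPM + 1) scale. Nfe2l1 was also lower with limma on log2(TPM + 1) (-1.27, adjusted p = 1.09e-05).

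Of 12 genes of the interferon pathway that controls the immunoproteasome, 8 were higher and 2 lower, and 6 and 3 with limma on log2(TPM + 1). Irf8, an interferon regulatory factor of myeloid and B cells, rose by 4.66, and Ifngr1, a chain of the interferon gamma receptor, by 1.75 (both log2). Irf1, which is induced by interferon gamma and acts on the immunoproteasome genes, instead fell by 0.57 (adjusted p = 0.000387), from 162, 174 and 182 CPM in the endogenous libraries to 116, 114 and 118 CPM. Of 10 genes of peptide loading and MHC class I, 7 were higher and 2 lower, and 5 and 2 with limma on log2(TPM + 1). B2m, the light chain of MHC class I, had the largest rise (1.39) and Pdia3, a chaperone of the loading complex, the largest fall (-0.31).

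Genes of blood cells rose in the same libraries as the immunoproteasome genes. All 16 leukocyte markers were higher, with a median log2 fold change of 4.20. All 14 macrophage markers were higher, at a summed 26353 to 27134 TPM in the MSC-derived libraries and 745 to 952 TPM in the endogenous libraries. All 12 neutrophil markers were higher, at 147901 to 156568 TPM against 8336 to 11678 TPM. Of the others, 12 of 12 erythroid, 6 of 8 B cell and 6 of 7 T and NK cell markers tested were higher, and none were lower. The 10 osteoblast markers were all lower, at 882 to 921 TPM against 70411 to 92011 TPM. The 14 proliferation genes were all higher (11 with limma on log2(TPM + 1)), at 498 to 501 TPM against 226 to 288 TPM. No marker of these lists was at 0 in all libraries of a group. The log2 fold changes were 3.14 to 6.33 for the leukocyte list, 2.86 to 9.53 for the macrophage list, 2.29 to 4.63 for the neutrophil list and 1.497 to 2.73 for the erythroid list, beside 1.38 to 2.87 for the immunoproteasome genes. The part of these cell markers in the results on the proteasome genes was not tested.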

How the data were processed

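Tomato+ cells of 2 groups, 3 libraries each, were measured by bulk RNA-seq. Reads were cleaned (SOAPnuke), mapped (HISAT2, Bowtie2) and turned into gene levels (RSEM) by the authors, and the submitters' processing notes name Bowtie2 2.2.5, RSEM 1.2.12 and the mm9 build. The deposited expected counts are RSEM estimates without normalization. The authors also deposited FPKM, scaled by length and library size, and TPM, scaled to the same sum in each library. FPKM summed to 808701 to 813572 in the MSC-derived libraries and to 504768 to 573603 in the endogenous ones. A further 6 columns of scaled counts and 8 columns of group averages were not used.

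Expected counts were rounded to whole numbers and analysed under R 4.3.3 by edgeR 4.0.16 (glmQLFit, glmQLFTest, TMM, filterByExpr) over all genes, with Benjamini-Hochberg adjustment and a threshold of 0.05. The SE is the log2 fold change divided by the square root of F. Positive values mean higher in MSC-derived cells. The 4 shares were tested with the exact permutation test in scipy 1.17.1. Alternatives were DESeq2 1.42.0, limma 3.58.1 on log2 values with a pseudocount of 1 or 0.1, other scalings and filters, a replicate block, each library left out, and a threshold of 0.001. The fit was tried on simulated counts, where a first limit set for the recovery of changed genes was narrowly missed and then lowered, so that real changes can go uncalled.

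Replicate numbers come from sample names, and same-numbered libraries of different groups come from different mice. Deviations from the group means correlated by 0.0022 to 0.0178 between same-numbered libraries, so the numbers do not pair them. The study gives 3 mice per group, and does not say outright that each library came from a single mouse. Named by rule were the 5 immunoproteasome genes, Psmb5, Psmb6, Psmb7, Psme3, the tissue-restricted genes and members that were not called. The rule also named the 5 largest other calls in each direction. From each context list it named the largest calls in each direction, with up to 4 genes for the control lists. Other genes were named after their values were seen. Some genes that this rule names are not reported here. Members and lists were chosen with earlier results of these data known.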

Additional observations from a re-analysis of the deposited data

How the results depend on the processing

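The 5 immunoproteasome genes were called higher in each of the 18 fits and at a threshold of 0.001. The other counts moved with the scale, the threshold or 1 library. Members called higher numbered 17 with limma on log2(TPM + 1), 17 with log2(TPM + 0.1) and 15 at 0.001, and those called lower 8, 8 and 0, with 1 under upper quartile factors (Psmd11). Constitutive subunits called higher numbered 7, 7 and 7 and those called lower 6, 6 and 0, with 1 under upper quartile factors. Other scales gave more calls. With limma on log2(FPKM + 1), 40 members and 27 constitutive subunits were higher, beside 5464 of all genes higher and 3955 lower. With library size alone these counts were 38 and 26, beside 5042 and 3970. In both, 0 members were lower. At 0.001, 2134 of all genes were higher and 2380 lower. Leaving out each library in turn gave 26 to 36 members higher and 0 to 3 lower, 15 to 23 constitutive subunits higher and 0 to 2 lower, 5 immunoproteasome genes, and 3672 to 5563 of all genes higher and 3761 to 5686 lower; the upper counts came without endogenous replicate 1. For genes that changed sign when a library was left out, the log2 fold changes ran from -0.11 to 0.069 for Psmc6 and -0.034 to 0.065 for Psmd5 and -0.068 to 0.32 for Psmd9. With a library left out, the difference of the shares ran from 29.2 to 34.7 percentage points for Psmb8 and 31.9 to 32.7 for Psmb9. It ran from 20.3 to 22.8 for Psmb10 and 23.1 to 24.2 for Psme1. With expected counts in place of TPM and all libraries, it was 32.2 for Psmb8, 28.1 for Psmb9, 23.7 for Psmb10 and 24.0 for Psme1. The cause of these shifts was not tested.

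With the replicate number as a block, 31 members were higher and 0 lower, 19 constitutive subunits were higher, 4103 of all genes were higher and 3920 lower. The numbers do not pair the libraries, and the block took the call from Psmc3 (adjusted p = 0.0646) and Psmd12 (adjusted p = 0.0619) and changed no other call of a member.

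Among the members, 47 values changed sign. Those of Psma4, Psmc3, Psmd6, Psmd8 and Psmd12, called higher with all libraries on the TMM scale, did so with limma on TPM, and the others belong to genes not called there. With limma on log2(TPM + 1) they were Psmb6 -0.20, Psmb4 -0.17, Psmc2 -0.069, Psmc6 -0.40, Psmd1 -0.35, Psmd2 -0.23, Psmd3 -0.23, Psmd5 -0.40, Psmd9 -0.18, Psme3ip1 -0.092, Psmg1 -0.31, Psmg2 -0.27, Psma4 -0.082, Psmc3 -0.16, Psmd12 -0.15, Psmd6 -0.037 and Psmd8 -0.059. With limma on log2(TPM + 0.1) they were Psmb6 -0.20, Psmb4 -0.17, Psmc2 -0.069, Psmc6 -0.41, Psmd1 -0.36, Psmd2 -0.23, Psmd3 -0.24, Psmd5 -0.41, Psmd9 -0.20, Psme3ip1 -0.094, Psmg1 -0.32, Psmg2 -0.28, Psma4 -0.083, Psmc3 -0.16, Psmd12 -0.16, Psmd6 -0.038 and Psmd8 -0.0596. With RLE factors it was Psmc6 -0.00083. With upper quartile factors they were Psmc6 -0.061, Psmd1 -0.0081 and Psmd5 -0.058. With TMM without the 50 highest genes they were Psmc6 -0.012 and Psmd5 -0.0085. With library size alone it was Psmd7 0.0398. With limma on log2(FPKM + 1) it was Psmd7 0.044. The cause was not tested. Depth limits Psma8, Psmb11 and Psme2b, which had few counts in some libraries.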
